A study of Homo sapiens with 4 samples.

Results

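The miR-181 family was followed through small RNA libraries of 2 hepatoma lines, Hep3B and Huh7 (the HCC cells), and of their stem-like derivatives, named Hep3B-C and Huh7-C (hepatic cancer stem cells, HCSCs). Its members were taken by name: the guide strands hsa-miR-181a, hsa-miR-181b, hsa-miR-181c and hsa-miR-181d, which are 4 of the 1733 miRNAs listed for each library. All 4 had counts in all 4 libraries and so entered the comparisons. Each line and cell state was represented by 1 library without replicates. The labels give no treatment, time point or genetic change. HCSCs were cultured from the parental lines, and the way they were enriched is not given in the sources used here. A difference between an HCSC library and its HCC library therefore has no replicate check, and the tests below compare libraries and cover counting error only.

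MiRNAs are cut from hairpin precursors, and as a rule one arm of the hairpin (the guide strand) is loaded into the silencing complex while the other (the passenger strand, marked with an asterisk in the nomenclature used here) is mostly degraded. A guide strand finds its target mRNAs mainly through its seed, the bases near its 5′ end, so members that share a seed are expected to share most predicted targets. The miR-181 family is best known for its part in lymphocyte development, and in the liver it has been linked to EpCAM-positive, stem-like hepatocellular carcinoma cells. The genes lie as pairs in 3 places. MIR181A1 and MIR181B1 are on chromosome 1, MIR181A2 and MIR181B2 on chromosome 9, and MIR181C and MIR181D on chromosome 19.

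The mature sequences are shown because they decide which reads can be told apart. They come from RefSeq (GRCh38.p14), all 4 members and the 3 listed passenger strands were matched, and capitals mark the seed (bases 2 to 8).
hsa-miR-181a: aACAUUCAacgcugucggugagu
hsa-miR-181b: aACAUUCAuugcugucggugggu
hsa-miR-181c: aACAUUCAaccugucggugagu
hsa-miR-181d: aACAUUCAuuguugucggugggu
hsa-miR-181a* (MIR181A1): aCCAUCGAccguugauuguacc
hsa-miR-181a-2* (MIR181A2): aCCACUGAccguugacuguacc
hsa-miR-181c* (MIR181C): aACCAUCGaccguugaguggac

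All 4 guide strands carry the same seed, ACAUUCA. Among 2370 mature names in the RefSeq table, 5 carry it, and the only one outside the family is hsa-miR-4262. It had 0 counts in every library. Its sequence is 17 nt long and reads under 18 nt were removed, so these 0 counts cannot limit its level. For miRNAs of a length that was kept, 0 counts allow up to 0.179 to 0.282 TPM (a floor of 3 counts), depending on the library. Outside the seed, hsa-miR-181a and hsa-miR-181c differ by 1 missing base, and hsa-miR-181b and hsa-miR-181d by the substitution C12U (positions counted from the 5′ end of hsa-miR-181b). Hsa-miR-181a and hsa-miR-181b are 3 substitutions apart (A9U, C10U and A21G). The mismatches allowed in assigning reads are not given in the sources used here, so reads could have been split wrongly between the members of each of these close pairs. No other miRNA had the same counts as a member in all libraries. In Hep3B-C, hsa-miR-181d made up 1.15% of its own reads and those of hsa-miR-181b, and hsa-miR-181c 0.159% of its own and those of hsa-miR-181a. The part of misassigned reads in the results was not tested.

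The mature hsa-miR-181a and hsa-miR-181b are each made from hairpins on chromosomes 1 and 9, and their reads do not tell the loci apart. The passenger strands do. Hsa-miR-181a* comes from MIR181A1, hsa-miR-181a-2* from MIR181A2 and hsa-miR-181c* from MIR181C. The hairpins that give both a guide and a listed passenger strand are printed below, with both arms in capitals and the guide strand first.
MIR181A1: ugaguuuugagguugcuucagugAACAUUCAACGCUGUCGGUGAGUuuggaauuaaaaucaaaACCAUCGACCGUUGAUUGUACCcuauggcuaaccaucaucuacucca
MIR181A2: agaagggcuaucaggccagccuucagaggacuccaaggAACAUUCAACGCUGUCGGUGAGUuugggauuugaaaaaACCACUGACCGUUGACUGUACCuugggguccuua
MIR181C: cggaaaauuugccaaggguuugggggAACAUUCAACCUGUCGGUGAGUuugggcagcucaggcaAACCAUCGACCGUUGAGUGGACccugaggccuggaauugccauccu

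MIR181A1 lies at chr1:198859044-198859153 on the minus strand and MIR181B1 at chr1:198858873-198858982, 61 bases apart, both in an intron of the long non-coding RNA MIR181A1HG (GENCODE release 29, GRCh38). MIR181A2 (chr9:124692442-124692551) and MIR181B2 (chr9:124693710-124693798) lie on the plus strand with 1158 bases between them. They are in an intron of MIR181A2HG and, on the opposite strand, in an intron of NR6A1. MIR181C (chr19:13874699-13874808) and MIR181D (chr19:13874875-13875011) are 66 bases apart on the plus strand, in an intron of NANOS3. The count files hold no positions.

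The Hep3B library held 1739278 miRNA counts, Hep3B-C held 5430195, Huh7 held 5741567 and Huh7-C held 4045199. Levels are given as TPM, in which counts are scaled to the total reads of the library, and these include reads that are not miRNA. One library stood apart: miRNA made up 10.4% of total reads in Hep3B and between 35.2% and 54.1% in the other 3. As a result, the median log2 fold-change over the 475 miRNAs of the Hep3B pair that reached 10 counts in a library was 1.42 per total reads and -0.34 per miRNA counts. For Huh7-C against Huh7, with 431 miRNAs, the medians were -0.66 and -0.15. Fold-changes of members are therefore also given relative to these medians, and ratios of members within a library, which do not depend on library size, are given after them. The 5 hepatocyte miRNAs summed to between 11008 TPM (Hep3B) and 115662 TPM (Huh7), but they did not share 1 order. Hsa-miR-122 had 397 counts in Hep3B and at least 144814 elsewhere, and hsa-miR-122* was at 0 in Hep3B. Hsa-miR-885-5p was highest there, with 186 counts, against 159 for Hep3B-C, 2 for Huh7 and 0 for Huh7-C. Hsa-miR-192 and hsa-miR-194 were higher in Hep3B-C than in Hep3B per total reads and lower per miRNA counts (log2 fold-changes of -0.53 and -0.45). The 6 blood-cell miRNAs summed to 8 counts in Hep3B, 1 in Hep3B-C, 796 in Huh7 (773 of them hsa-miR-451) and 5 in Huh7-C. Hsa-miR-150 and hsa-miR-144 were at 0 in every library. The 2 endothelial miRNAs summed to between 52.2 and 208 TPM, the 4 stromal ones to between 1.77 and 111 TPM, the 2 nerve ones to between 9.18 and 1059 TPM, and the 3 muscle ones to between 0.894 and 13.0 TPM. Their part in the results was not tested.

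The family was dominated by hsa-miR-181a and hsa-miR-181b, the guide strands of the chromosome 1 and 9 loci, while both members of the chromosome 19 locus were scarce. Mature miRNAs of nearly equal length (22 or 23 nt) are read whole, so TPM was compared between members without a length correction, although ligation can favor some sequences over others. Hsa-miR-181a had 10317 counts (615 TPM) in Hep3B, 17631 (1142 TPM) in Hep3B-C, 2543 (239 TPM) in Huh7 and 2211 (206 TPM) in Huh7-C. Both Hep3B-derived libraries were above both Huh7-derived ones. Hsa-miR-181b had 11707 counts (698 TPM) in Hep3B, 19204 (1244 TPM) in Hep3B-C, 2062 (194 TPM) in Huh7 and 2231 (208 TPM) in Huh7-C. It followed the same order between the lines and was close to hsa-miR-181a in each library.

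Hsa-miR-181d had 869 counts (51.8 TPM) in Hep3B, 224 (14.5 TPM) in Hep3B-C, 199 (18.7 TPM) in Huh7 and 136 (12.7 TPM) in Huh7-C. Hep3B was the high library, and the other 3 lay within a narrow range. Hsa-miR-181c, the least abundant member, had 88 counts (5.24 TPM) in Hep3B, 28 (1.81 TPM) in Hep3B-C, 56 (5.27 TPM) in Huh7 and 27 (2.52 TPM) in Huh7-C. Both HCC libraries were above both HCSC libraries. By rank among the miRNAs detected, hsa-miR-181b stood 25th of 674 in Hep3B and 28th of 773 in Hep3B-C, then 74th of 712 in Huh7 and 58th of 664 in Huh7-C. Hsa-miR-181d went from 78th in Hep3B to 189th in Hep3B-C and stood 157th in both Huh7 and Huh7-C. Hsa-miR-181c stood 190th in Hep3B and 335th in Hep3B-C, then 235th in Huh7 and 267th in Huh7-C. These ranks do not depend on library size, but the number of miRNAs detected differed between libraries, and it did not follow their miRNA counts. Summed over the members, the family made up 1.32% of miRNA counts in Hep3B (95% Clopper-Pearson interval 1.30% to 1.34%), 0.683% in Hep3B-C (0.676% to 0.690%), 0.0846% in Huh7 (0.0823% to 0.0871%) and 0.114% in Huh7-C (0.111% to 0.117%).

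**Figure D1:**
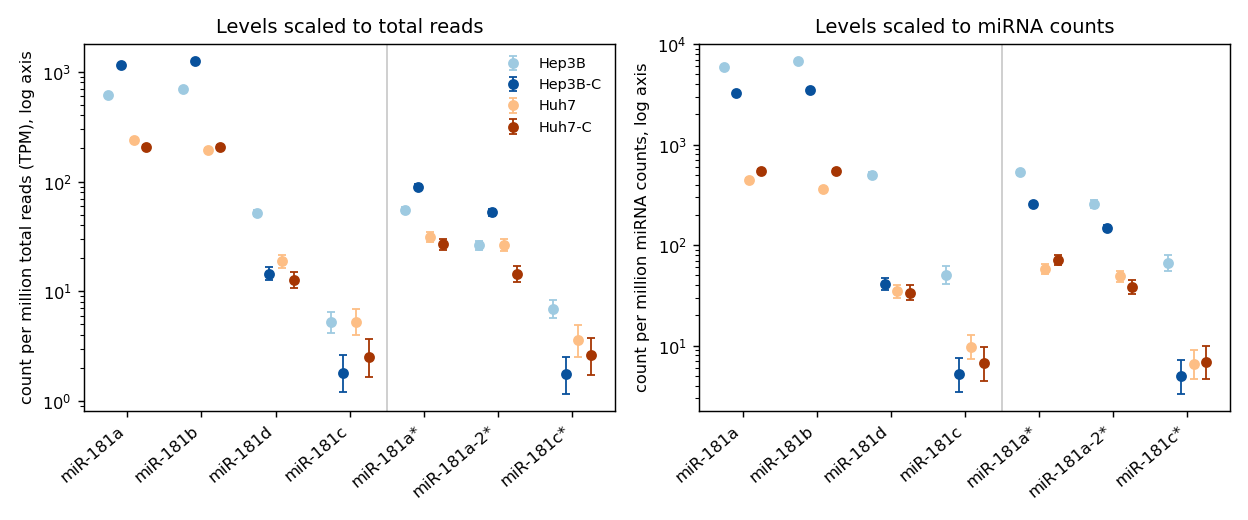
Level of the 4 guide strands (left of the gray line) and 3 passenger strands in each library, on log axes, scaled to total reads (left panel) and to miRNA counts (right panel). Points are single libraries and bars are 95% Poisson intervals of the counts. Hep3B-C lies above Hep3B for hsa-miR-181a and hsa-miR-181b on the left and below it on the right, and below Hep3B for hsa-miR-181c and hsa-miR-181d in both panels.

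To ask how the family differed between HCSCs and HCC cells, each HCSC library was compared with the line it came from. In the Hep3B pair, both chromosome 19 members decreased in Hep3B-C, and hsa-miR-181a and hsa-miR-181b did not pass the fold threshold. Hsa-miR-181d decreased by 1.84 on the log2 scale, more than any other member (exact binomial 95% interval of the log2 fold-change, -2.05 to -1.62). Its adjusted p was 4.41e-78 in the exact Poisson test. Hsa-miR-181c stood at -1.53 (-2.20 to -0.90), with adjusted p = 5.41e-07 by the same exact test. This member was among those that the study selected on these libraries, so its decrease is not independent evidence. The 2 members called down-regulated stand beside a background of 2.52% of the 834 miRNAs tested, and the 0 called up-regulated beside 33%. A call needed a change of 1 or more on the log2 scale in either direction and an adjusted p no higher than 0.01. The log2 fold-change was 0.89 (interval 0.86 to 0.93) for hsa-miR-181a and 0.83 (0.80 to 0.87) for hsa-miR-181b. Over the 4 members the median was -0.35, beside 1.54 over all miRNAs tested.

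The direction of hsa-miR-181a and hsa-miR-181b in the Hep3B pair depended on the library size. Relative to the median miRNA they stood at -0.53 and -0.59 on the log2 scale, and per miRNA counts at -0.87 and -0.93. Hsa-miR-181c and hsa-miR-181d stood at -2.95 and -3.26 relative to the median and kept their direction under every library size tried. Summed over the family, the log2 fold-change was 0.81 per total reads (interval 0.79 to 0.83) and -0.95 per miRNA counts. When edgeR's exact test was given a coefficient of variation of 0.4 between cultures, both calls were lost (adjusted p = 0.321 for hsa-miR-181c; hsa-miR-181d had 0.169).

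In the Huh7 pair the family differed less. Hsa-miR-181c was the single member called, down-regulated in Huh7-C by 1.06 on the log2 scale (-1.78 to -0.38), beside a background of 17.1% called down-regulated and 2.98% up-regulated among the 772 miRNAs tested. Hsa-miR-181d had a log2 fold-change of -0.56 (interval -0.89 to -0.24), hsa-miR-181a of -0.21 (-0.30 to -0.13) and hsa-miR-181b of 0.10 (0.01 to 0.19), none past the fold threshold. The median over the members was -0.39, beside -0.65 over all miRNAs tested. Relative to the median of the 431 miRNAs, hsa-miR-181a and hsa-miR-181b stood higher, at 0.45 and 0.77, and hsa-miR-181d at 0.10 (interval -0.22 to 0.42). Hsa-miR-181c stood at -0.40 (-1.12 to 0.29), an interval that includes 0, and it was not called with any library size other than total reads. It rests on 56 and 27 counts.

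**Figure D2:**
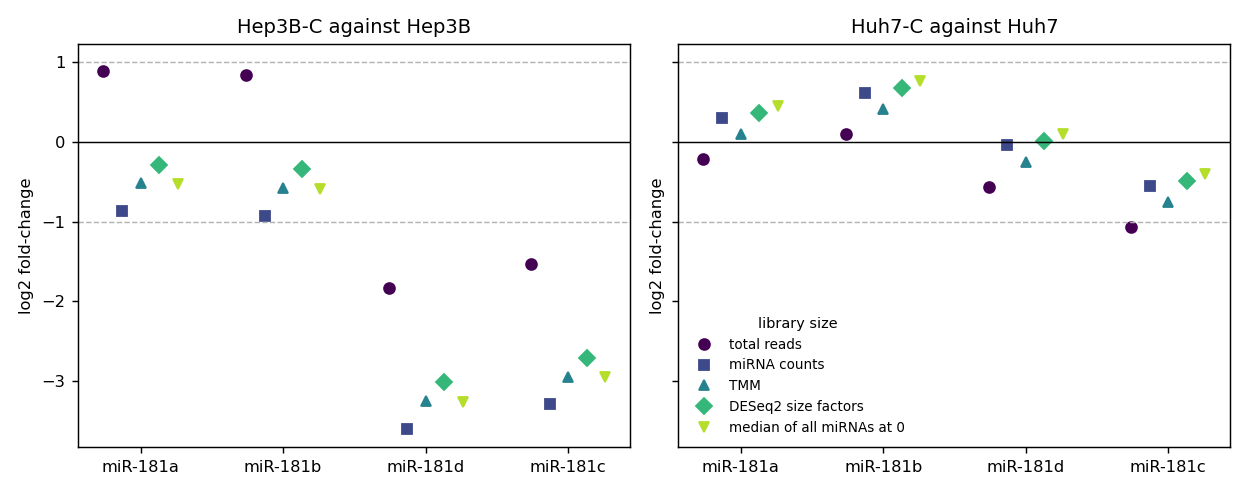
Log2 fold-change of each guide strand in HCSCs against HCC cells (Hep3B pair left, Huh7 pair right) under 5 library sizes, with 1 library per condition. The solid line marks 0 and the dashed lines a log2 fold-change of 1 in either direction. In the Hep3B pair, hsa-miR-181c and hsa-miR-181d lie below -1 under all 5, whereas hsa-miR-181a and hsa-miR-181b lie above 0 with total reads alone.

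Taking the 2 lines together, edgeR's quasi-likelihood test with the parental line as a block called none of the members among 443 miRNAs tested. It called 0 miRNAs in all at an adjusted p of 0.05, with 31 at an unadjusted p under 0.05, and DESeq2 called 5, none of them a member. The log2 fold-change was -1.62 for hsa-miR-181c (adjusted p = 0.584) and -1.53 for hsa-miR-181d (adjusted p = 0.662), both from edgeR. It was 0.02 for hsa-miR-181a and 0.14 for hsa-miR-181b (adjusted p = 0.996 and 0.925, edgeR). This fit had 1 residual degree of freedom and a biological coefficient of variation of 0.546, so differences between members were examined next in measures that need no library size.

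The make-up of the family within a library showed the clearest difference. In Hep3B, hsa-miR-181a took 44.9% of the family's counts, hsa-miR-181b 50.9%, hsa-miR-181d 3.78% and hsa-miR-181c 0.383%. In Hep3B-C the shares were 47.5%, 51.8%, 0.604% and 0.0755%. The chromosome 19 members together went from 4.16% (95% Clopper-Pearson interval 3.91% to 4.43%) to 0.680% (0.598% to 0.768%), and these intervals are far apart. In the Huh7 pair the shares were 52.3% and 48.0% for hsa-miR-181a, 42.4% and 48.4% for hsa-miR-181b, 4.09% and 2.95% for hsa-miR-181d, and 1.15% and 0.586% for hsa-miR-181c. The chromosome 19 members together went from 5.25% (4.64% to 5.91%) in Huh7 to 3.54% (3.02% to 4.11%) in Huh7-C. The shares of these scarce members were thus lower in the HCSCs of both lines, and the intervals cover counting error only.

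**Figure D3:**
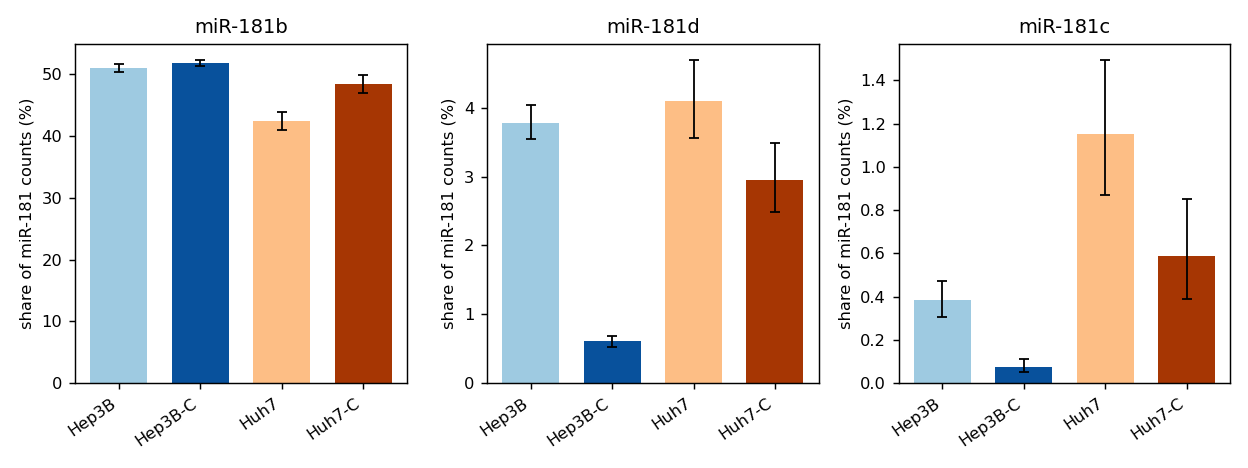
Share of the family's counts taken by hsa-miR-181b, hsa-miR-181d and hsa-miR-181c in each library, with 95% Clopper-Pearson intervals and 1 library per bar; each panel has its own axis, starting at 0. The share of hsa-miR-181d is 0.604% in Hep3B-C and at least 2.95% in the other libraries.

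Ratios of 2 miRNAs were compared between libraries by Fisher's exact test on their counts (2-sided, Benjamini-Hochberg adjustment over 44 tests, threshold 0.05). The ratio of hsa-miR-181d to hsa-miR-181a decreased from 0.0842 in Hep3B to 0.0127 in Hep3B-C, a log2 change of -2.73 (exact interval -2.95 to -2.51; adjusted p = 5.23e-174, Fisher's exact test). That of hsa-miR-181c to hsa-miR-181a decreased from 0.00853 to 0.00159, a log2 change of -2.43 (-3.09 to -1.80; adjusted p = 9.41e-17, Fisher's exact test). Relative to each other, the chromosome 19 members were close: the log2 change of the ratio of hsa-miR-181d to hsa-miR-181c was -0.30 (-0.97 to 0.40). In the Huh7 pair, the ratio to hsa-miR-181a decreased for hsa-miR-181c from 0.0220 to 0.0122, a log2 change of -0.85 (-1.58 to -0.16; adjusted p = 0.0214, Fisher's exact test). For hsa-miR-181d it decreased from 0.0783 to 0.0615, a log2 change of -0.35 (-0.68 to -0.01; adjusted p = 0.0496, Fisher's exact test), close to the threshold. For the close pair that differs by C12U, hsa-miR-181d to hsa-miR-181b, the log2 change was -2.67 (-2.89 to -2.45) between Hep3B and Hep3B-C and -0.66 between Huh7 and Huh7-C (adjusted p = 5.57e-167 and 1.36e-04, Fisher's exact test).

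The abundant members kept nearly the same ratio in the Hep3B pair. Hsa-miR-181b to hsa-miR-181a was 1.13 in Hep3B and 1.09 in Hep3B-C, a log2 change of -0.06 (interval -0.11 to -0.01; adjusted p = 0.0235, Fisher's exact test). It was 0.811 in Huh7 and 1.01 in Huh7-C, a log2 change of 0.32 (0.20 to 0.44; adjusted p = 5.40e-07, Fisher's exact test). Differences this small pass the test because these members had at least 2062 counts in every library, and variation between cultures is not covered.

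Passenger strands gave a second reading of the same hairpins from other sequences. Hsa-miR-181c* had 116 counts (6.91 TPM) in Hep3B, 27 (1.75 TPM) in Hep3B-C, 38 (3.58 TPM) in Huh7 and 28 (2.61 TPM) in Huh7-C. It was high in Hep3B and low in the other 3 libraries, and it decreased in the Hep3B pair by 1.98 on the log2 scale (-2.64 to -1.37), with adjusted p = 2.38e-12 by the exact Poisson test. Between Huh7 and Huh7-C it stood at -0.45 (-1.21 to 0.29) and was not called. The ratio of hsa-miR-181c* to hsa-miR-181a*, both passenger strands, had a log2 change of -2.70 (-3.37 to -2.07) in the Hep3B pair and of -0.23 (-1.03 to 0.55) in the Huh7 pair. Both arms of MIR181C were about equally abundant, with 1.32 passenger reads per guide read in Hep3B and 0.964 in Hep3B-C, and with 0.679 in Huh7 and 1.04 in Huh7-C. The log2 change of this ratio from HCC cells to HCSCs was -0.45 (-1.38 to 0.48) for Hep3B and 0.61 (-0.43 to 1.66) for Huh7, and neither passed the test (adjusted p = 0.428 and 0.295, Fisher's exact test). From Hep3B to Huh7 the ratio did differ, with a log2 change of -0.96 (-1.72 to -0.20; adjusted p = 0.0147, Fisher's exact test). From Hep3B-C to Huh7-C the change was 0.10 (-1.07 to 1.28).

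Hsa-miR-181a* had 921 counts (54.9 TPM) in Hep3B, 1389 (90.0 TPM) in Hep3B-C, 331 (31.2 TPM) in Huh7 and 287 (26.8 TPM) in Huh7-C. Hsa-miR-181a-2* had 443 (26.4 TPM), 809 (52.4 TPM), 281 (26.5 TPM) and 154 (14.4 TPM) in the same order. Neither was called in either pair, so 1 of 3 passenger strands was called down-regulated in the Hep3B pair (background 2.52%) and 0 of 3 in the Huh7 pair (background 17.1%), and 0 were called up-regulated (33% and 2.98%). Per miRNA counts both turned direction in the Hep3B pair, where hsa-miR-181a* stood at -1.05 and hsa-miR-181a-2* at -0.77. The ratio of the chromosome 9 passenger strand to that of chromosome 1 increased from 0.481 in Hep3B to 0.582 in Hep3B-C (log2 change 0.28, interval 0.07 to 0.49; adjusted p = 0.0147, Fisher's exact test). It decreased from 0.849 in Huh7 to 0.537 in Huh7-C (log2 change -0.66, -1.04 to -0.29; adjusted p = 7.26e-04, Fisher's exact test). Huh7 was the high library, and the other 3 lay between 0.481 and 0.582. Of 5 passenger strand names looked for, 3 were listed for the libraries, and these come from MIR181A1, MIR181A2 and MIR181C. The same reading was therefore not made for hsa-miR-181b or hsa-miR-181d.

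**Figure D4:**
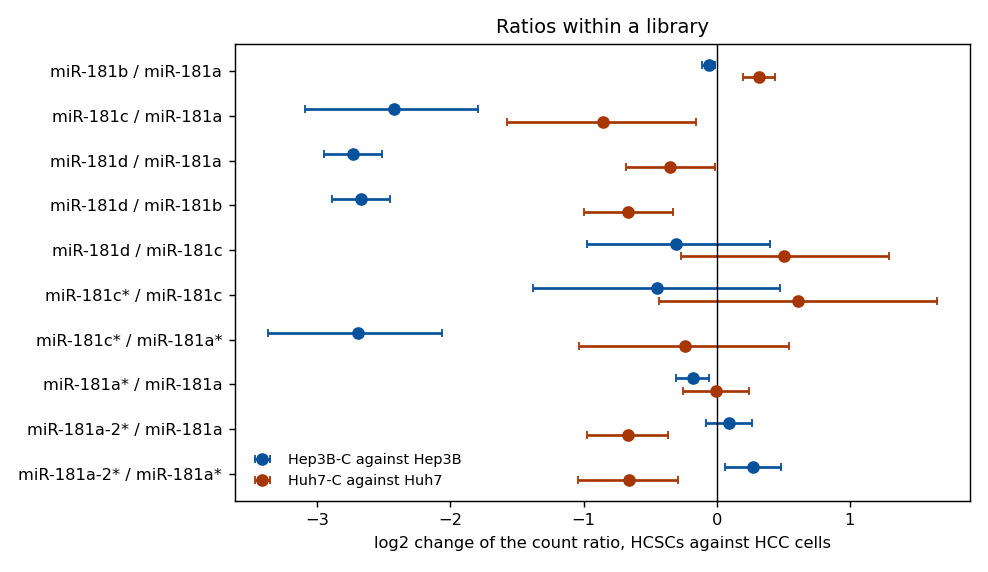
Log2 change of the count ratio of 2 miRNAs, HCSCs against HCC cells, for the Hep3B pair (blue) and the Huh7 pair (brown), with exact 95% intervals of the counts and 1 library per condition. Ratios of hsa-miR-181c, hsa-miR-181d and hsa-miR-181c* to the chromosome 1 and 9 strands lie between -2.73 and -2.43 (blue) and between -0.85 and -0.23 (brown).

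The change of make-up differed between the lines. By an exact test of equal odds ratios in both pairs (Zelen's test, 2-sided, adjusted over 11 ratios), the ratio of hsa-miR-181d to hsa-miR-181a decreased more in the Hep3B pair, by a log2 difference of -2.38 (adjusted p = 3.21e-30). For hsa-miR-181c to hsa-miR-181a the difference was -1.57 (adjusted p = 0.0015, exact test), and for hsa-miR-181c* to hsa-miR-181a* it was -2.46 (adjusted p = 1.77e-06, exact test). The ratio of hsa-miR-181d to hsa-miR-181c did not pass, with a difference of -0.81 (adjusted p = 0.128, exact test). With 1 library for each condition, these tests compare 4 libraries and not the lines at large.

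Between the lines, the abundant members were lower in Huh7-derived cells in both states. From Hep3B to Huh7, hsa-miR-181a, hsa-miR-181b and hsa-miR-181d had log2 fold-changes of -1.36, -1.85 and -1.47, which were 3 members called lower beside a background of 9.18%. Hsa-miR-181c stood at 0.01 (interval -0.50 to 0.51) per total reads, and at -1.58 relative to the median of 1.59. With every library size other than total reads it was also called lower, which made 4 members called. The background share was computed with total reads only. From Hep3B-C to Huh7-C, hsa-miR-181a and hsa-miR-181b were lower, with log2 fold-changes of -2.47 and -2.58, and the 2 calls stand beside a background of 23%. Hsa-miR-181c (0.47, interval -0.34 to 1.29) and hsa-miR-181d (-0.19, -0.51 to 0.12) did not pass. For the chromosome 19 members the choice of library size decided the result. Relative to the median of -0.82, whose use turns the direction of hsa-miR-181d, hsa-miR-181c stood at 1.29 and was called higher (adjusted p = 0.0041, exact Poisson test), and hsa-miR-181d stood at 0.63. Free of library size, the ratio of the chromosome 19 members to the others was higher in Huh7-C than in Hep3B-C by 2.42 on the log2 scale (2.13 to 2.72; adjusted p = 9.52e-50, Fisher's exact test). Between the HCC lines it was higher in Huh7 by 0.35 (0.14 to 0.56; adjusted p = 0.0018, Fisher's exact test). Per total reads, 0 members were called higher in Huh7 or Huh7-C. The background shares called higher were 32.4% for Huh7 against Hep3B and 13.6% for Huh7-C against Hep3B-C. No background share was computed relative to the median, where hsa-miR-181c was called higher in Huh7-C.

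The nearest other miRNA hairpins to MIR181C among the named miRNAs belong to the MIR23A cluster, on the opposite strand of chromosome 19 with 38039 bases between MIR23A and MIR181C. Its miRNAs were set beside the chromosome 19 members. Hsa-miR-23a had 421 counts (25.1 TPM) in Hep3B, 289 (18.7 TPM) in Hep3B-C, 1802 (170 TPM) in Huh7 and 781 (72.9 TPM) in Huh7-C. Hsa-miR-27a had 2340 (139 TPM), 1724 (112 TPM), 7662 (721 TPM) and 11356 (1060 TPM) in the same order. Per total reads both were higher in the Huh7-derived libraries, the opposite of hsa-miR-181a and hsa-miR-181b. This order did not hold per miRNA counts, where the log2 fold-change of hsa-miR-27a from Hep3B to Huh7 was -0.012 and hsa-miR-23a was lower in Huh7-C than in Hep3B. Between Hep3B and Hep3B-C, 0 of the 5 cluster miRNAs tested were called in either direction per total reads, beside backgrounds of 33% higher and 2.52% lower. Per miRNA counts these 5 all lay past the fold threshold, with log2 fold-changes from -2.19 (hsa-miR-23a) to -1.45 (hsa-miR-24-2*). Calls for the cluster were made per total reads only. Of the 6 tested between Huh7 and Huh7-C, only hsa-miR-23a was called, down-regulated with a log2 fold-change of -1.22, beside a background of 17.1%. Per miRNA counts it stood at -0.70. Relative to the median, hsa-miR-23a, hsa-miR-27a, hsa-miR-27a* and hsa-miR-24 stood between -1.85 and -1.38 in the Hep3B pair, nearer to 0 than the chromosome 19 members of the family. Hsa-miR-24-2*, with 14 and 16 counts, stood at -1.11 (-2.24 to 0.04). Hsa-miR-24 is also made from a locus on chromosome 9, and its reads do not tell the loci apart.

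**Figure D5:**
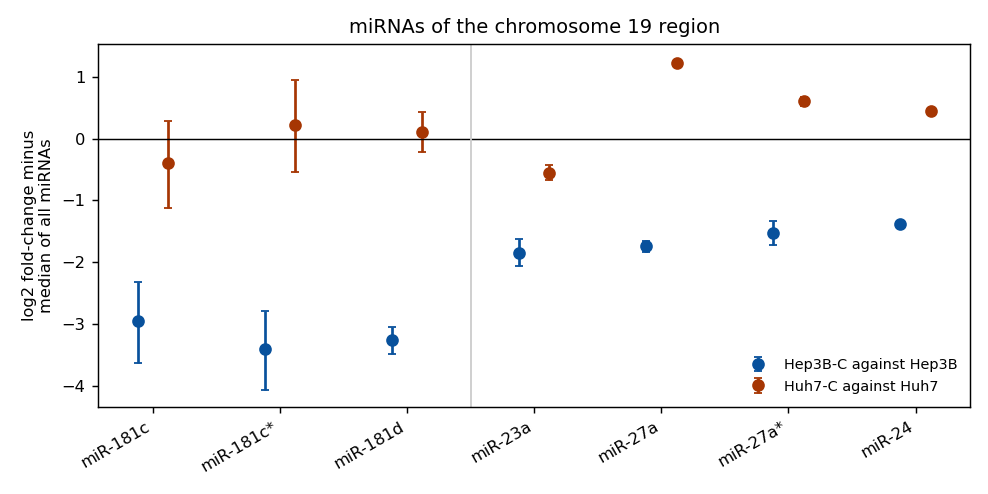
Log2 fold-change minus the median of all miRNAs that reached 10 counts in a library, HCSCs against HCC cells, for miRNAs of MIR181C and MIR181D (left of the gray line) and of 4 miRNAs of the MIR23A cluster (hsa-miR-23a* and hsa-miR-24-2* are not plotted), with exact binomial 95% intervals of the counts. In the Hep3B pair the 7 plotted lie below 0, those of the family between -3.41 and -2.95 and the 4 of the cluster between -1.85 and -1.38.

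The miR-17-92 cluster, known as a growth-promoting cluster in many tumors, was taken as a further list. In the Hep3B pair 4 of its 6 guide strands were called up-regulated (background 33%) and 0 down-regulated (background 2.52%), with log2 fold-changes from 0.77 (hsa-miR-18a) to 2.33 (hsa-miR-92a). Their median was 1.09, beside 1.54 over all miRNAs tested. Between Huh7 and Huh7-C, 3 were called down-regulated (background 17.1%) and 0 up-regulated (background 2.98%), with log2 fold-changes from -1.85 (hsa-miR-19b) to 0.23 (hsa-miR-17). Per miRNA counts, 3 of the 4 called in the Hep3B pair turned direction, with hsa-miR-19a at -0.34, hsa-miR-19b at -0.72 and hsa-miR-20a at -0.62. Hsa-miR-92a stood at 0.56 and kept its direction.

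The miRNAs with the most similar profiles were named by the Euclidean distance between log2 levels over the 4 libraries (counts scaled to miRNA counts, each miRNA centered on its mean), among the other 264 miRNAs with at least 10 counts in every library. For hsa-miR-181b the nearest were hsa-miR-17 (distance 0.124), hsa-miR-130b (0.255) and hsa-miR-181a (0.374). For hsa-miR-181a they were hsa-miR-744 (0.271), hsa-miR-181b (0.374) and hsa-miR-17 (0.382). Hsa-miR-17 had 17417 counts (1038 TPM) in Hep3B, 29610 (1918 TPM) in Hep3B-C, 3155 (297 TPM) in Huh7 and 3726 (348 TPM) in Huh7-C, the same order as hsa-miR-181b. For hsa-miR-181d the nearest was hsa-miR-181c* (0.657), followed by hsa-miR-15b* (0.785) and hsa-miR-181c (1.15). For hsa-miR-181c they were hsa-miR-29c (0.508), hsa-miR-181c* (0.686) and hsa-miR-15b* (0.758). The family thus fell into a close pair of hsa-miR-181a and hsa-miR-181b and a looser pair of hsa-miR-181c and hsa-miR-181d, at distances of 2.23 to 3.08 from each other. Profiles over 4 libraries of 2 lines share their depth and line, and the distances are given without a test.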

How the data were processed

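Small RNA was sequenced from 4 cell populations, with 1 library each. The authors filtered contaminant and redundant reads and reads under 18 nt, aligned what was left with SOAP to human NCBI Build 36.1, set aside other small RNA classes, searched the remainder against miRBase release 17, and deposited raw read counts per mature miRNA without normalization. The total reads that served as library sizes are those the study states for each library. They are not printed here.

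From the counts, TPM and log2 fold-changes were computed for all 1733 miRNAs. Each HCSC library was compared with that of its parental line, and the lines within each cell state, by Audic and Claverie's exact test for Poisson counts (2-sided, the smaller tail, observed count included, doubled), with Benjamini-Hochberg adjustment over the miRNAs detected in 1 or both libraries. A call needed a log2 fold-change of 1 or more in either direction with an adjusted p no higher than 0.01, and 0.001 stood in for a TPM of 0. Both lines together were fitted by edgeR's quasi-likelihood test (TMM, at least 10 counts in at least 2 libraries, adjusted p of 0.05). The parental line served as the block, as HCSCs were cultured from it. Deviations from the state means had a Pearson r of 0.833 between the libraries of a line, across 443 miRNAs, which are not independent replicates. Ratios of counts were tested by Fisher's exact test, and equality of their changes in both pairs by Zelen's exact test, which was added after the counts were seen. Intervals are 95% intervals and, like the floor of 3 counts, cover counting error only, since reads without molecular identifiers are not independent molecules. One read equalled 0.0596 to 0.0941 TPM.

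The members, the lists and the tests were chosen with earlier results of these data known. Named miRNAs were the members, their passenger strands, miRNAs of the same seed, the MIR23A and miR-17-92 clusters, cell type markers, and the 3 most similar profiles of each member. Alternatives were other library sizes (miRNA counts, TMM, DESeq2 size factors and, added later, the median miRNA), an exact binomial test, an assumed biological coefficient of variation, a count filter, 0.5 added counts, DESeq2, no block, and leaving out each library. Sequences come from RefSeq (GRCh38.p14) and positions from GENCODE release 29 (GRCh38), matched by name, with current -3p and -5p names for the older ones of the files. On simulated data with 200 miRNAs changed 4-fold and Poisson noise, the pair test recovered 98.5% in both HCSC/HCC pairs. With 8-fold changes, the fit over both lines recovered 100% at a dispersion of 0.01 and 36.5% at 0.3. Python 3.11.15, scipy 1.17.1, pandas 2.3.3, numpy 2.4.6, matplotlib 3.10.9, R 4.3.3, edgeR 4.0.16 and DESeq2 1.42.0 were used.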

Additional observations from a re-analysis of the deposited data

Results flagged for a closer look

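Hsa-miR-181a stood in opposite directions in the lines, with a log2 fold-change of 0.89 for Hep3B-C against Hep3B and of -0.21 for Huh7-C against Huh7. Its passenger strands did so too, hsa-miR-181a* at 0.71 against -0.22 and hsa-miR-181a-2* at 0.99 against -0.88, as did the sum of the 4 members at 0.81 against -0.09. These differences between the lines were not tested. Per miRNA counts the signs were exchanged for hsa-miR-181a (-0.87 and 0.30), hsa-miR-181a* (-1.05 and 0.30) and the sum (-0.95 and 0.43). Hsa-miR-181a-2* was then lower in both HCSC libraries, at -0.77 and -0.36, and the opposition was lost.

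The change of 8 count ratios differed between the pairs by Zelen's exact test, 11 ratios having been tested. The difference of the log2 changes (Hep3B pair minus Huh7 pair) was -0.37 for hsa-miR-181b to hsa-miR-181a, -1.57 for hsa-miR-181c to hsa-miR-181a, -2.38 for hsa-miR-181d to hsa-miR-181a and -2.01 for hsa-miR-181d to hsa-miR-181b. It was -2.07 for the chromosome 19 members to the other members and -2.46 for hsa-miR-181c* to hsa-miR-181a*. For hsa-miR-181a-2* it was 0.76 relative to hsa-miR-181a and 0.94 relative to hsa-miR-181a*. Each rests on 1 library per condition.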

How the results depend on the processing

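All 44 count ratios stayed within their intervals when 0.5 counts were added. The lowest count in any ratio was 27, so that addition could hardly move them. The 3 most similar profiles of each member were the same miRNAs with log2 TPM on total reads. That outcome was fixed in advance, because a library size shifts all centered profiles alike and cancels from the distances. The 106 alternatives within the HCSC/HCC pairs covered each member, the sum of the members and the numbers of members called. Of these, 71 left the result as it was: a member's direction and call, the sum within its interval, or the number called. A member that stayed uncalled with the same direction counted as unchanged, whatever its adjusted p. The exact binomial test, the assumed coefficient of variation and the count filter cannot alter a fold-change. For members under the fold threshold their outcome was fixed in advance, so the 71 overstate how stable the results are. The library size moved the values most. With total miRNA counts, TMM library sizes, DESeq2 size factors and the median miRNA (chosen after seeing the data), in this order, Hep3B-C stood against Hep3B at log2 fold-changes of -0.87, -0.52, -0.29 and -0.53 for hsa-miR-181a, -0.93, -0.58, -0.35 and -0.59 for hsa-miR-181b, and -0.95, -0.60, -0.37 and -0.61 for the sum of the members. In the Huh7 pair it was 0.30, 0.10, 0.36 and 0.45 for hsa-miR-181a, -0.55, -0.75, -0.49 and -0.40 for hsa-miR-181c, which left 0 members called, and 0.43, 0.23, 0.48 and 0.57 for the sum. Hsa-miR-181d stood at 0.011 with DESeq2 size factors and at 0.10 with the median miRNA. With total reads and an assumed coefficient of variation of 0.4, hsa-miR-181c and hsa-miR-181d (-1.53 and -1.84) in the Hep3B pair lost their calls. So did hsa-miR-181c (-1.06) in the Huh7 pair, leaving 0 members called in either pair.

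Between Hep3B and Huh7, the same 4 library sizes gave -2.38, -1.45, -1.44 and -1.58 for hsa-miR-181c and -3.96, -3.04, -3.03 and -3.17 for the sum. Between Hep3B-C and Huh7-C they gave -2.58, -2.21, -2.18 and -1.66 for the sum. There hsa-miR-181d stood at 0.075 with TMM, 0.11 with DESeq2 size factors and 0.63 with the median miRNA. The median miRNA also placed hsa-miR-181c at 1.29, the 1 member then called higher. The share of all miRNAs called higher with that library size was not computed.

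In the fit over both lines no alternative called a member. Without the count filter hsa-miR-181a stood at -0.21 and hsa-miR-181b at -0.081, and without the replicate block at -0.17 and -0.19. Leaving out 1 library at a time, without the block, gave values from -1.44 to 1.65 for hsa-miR-181a, from -1.55 to 2.05 for hsa-miR-181b, from -2.19 to -0.94 for hsa-miR-181c and from -2.86 to -0.17 for hsa-miR-181d; the lone library of an arm was assumed to vary like the others. Hsa-miR-181c and hsa-miR-181c* had at most 116 counts in a library, so their depth limits what can be told in the Huh7 pair. No cause of these shifts other than the library size itself was tested.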

Other observations

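The passenger strands of MIR181A1 and MIR181A2 took different shares beside hsa-miR-181a in the parental lines. Reads of hsa-miR-181a come from both loci, so the balance of arms at either hairpin was not measured. Hsa-miR-181a* made up 8.20% of its own reads and those of hsa-miR-181a in Hep3B and 11.5% in Huh7, a log2 change of their ratio of 0.54 (exact interval 0.35 to 0.74; adjusted p = 1.78e-07, Fisher's exact test). For hsa-miR-181a-2* the shares were 4.12% and 9.95%, a log2 change of 1.36 (1.13 to 1.59; adjusted p = 2.99e-29, Fisher's exact test). Between the HCSC lines the same changes were 0.72 and 0.60. In each library hsa-miR-181a* had more counts than hsa-miR-181a-2*, from 1.18 times in Huh7 to 2.08 times in Hep3B.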
